A study of Mus musculus with 6 samples.

Results

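Mitochondrial protein import was described here by 35 genes out of the 54532 in the count table. They were chosen by name, with earlier results of these data known: the protein-coding genes whose symbols start with Tomm or Timm, without Timmdc1, together with Pam16, Dnajc19, Grpel1, Grpel2, Pmpca, Pmpcb, Chchd4, Gfer, Mtx1 and Mtx2. Poly-A RNA-seq libraries, 1 per heart, came from left ventricles of 3 TG mice and 3 NTG mice 4 weeks after aortic banding (AB), a surgical narrowing of the aorta that overloads the heart. The comparison of TG with NTG asks how the RNA of the overloaded heart differs when HINT2, a mitochondrial nucleotide-binding protein, is overexpressed. All 6 mice were males that had AB at an age of 8 to 10 weeks, and none of the 6 was a sham-operated animal. The TG genotype is HINT2CTG-Myh6Cre, in which a CAG promoter precedes a floxed stop and human HINT2, and a Cre driven by the cardiomyocyte promoter of Myh6 removes that stop after tamoxifen, given at 5 mg/kg per day for 7 days. The NTG mice are labelled C57BL/6J, and whether they carried the Cre or received tamoxifen is not given in the sources used here, so an effect of Cre or tamoxifen and one of HINT2 cannot be told apart.

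Nearly all mitochondrial proteins are made in the cytosol and have to be imported. They enter through the translocase of the outer membrane (TOM). From there the sorting and assembly machinery (SAM) inserts barrel-shaped outer membrane proteins, the small TIM chaperones and TIM22 deliver carrier proteins to the inner membrane, the disulphide relay (MIA) traps small proteins between the membranes, and TIM23 with its motor (PAM) pulls proteins with a presequence into the matrix, where the processing peptidase (MPP) cuts the presequence off. Cardiomyocytes are packed with mitochondria, and inherited loss of DNAJC19, a part of the motor, causes dilated cardiomyopathy in humans.

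The libraries held 14863568 to 17581220 counts on genes. Mouse Hint2 had 12 counts in the library labelled NTG 1, against 545 and 559 in the other NTG libraries and 793 to 859 in TG, so NTG 1 stood apart from its group. Over all genes too, its counts differed less from each TG library (chi-square per gene of 17.8 to 28.1) than from NTG 2 (71.2) or NTG 3 (33.1), so leaving it out takes away the NTG heart that was most like TG. Results are therefore given with and without it. The share of counts on mitochondrially encoded genes was 13.4% to 19.2% for NTG hearts and 16% to 21.5% for TG hearts. Each library is a separate heart, and all p-values rest on the spread among these 6 hearts.

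Of the 35 import genes, 32 had enough counts to be tested. The other 3 were near or at 0. Timm8a2 had 0 counts in all libraries and Tomm20l, a relative of the receptor gene Tomm20, had 7 counts in all. Tomm6, a small TOM subunit, had 0 counts in the NTG libraries and 0, 1 and 2 in TG. In the mouse annotation (GENCODE release 21, GRCm38), 76% of the exon bases of Tomm6 are shared with the readthrough gene Gm21981 on the same strand, which itself had 1 count in all, and the part of this overlap in the count of Tomm6 was not tested.

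Promoters of 4 members are shown for the genes the results turn on: Timm13 and Timm8b, the members of the small TIM chaperones with the largest fold changes, Timm23, the inner membrane channel, and Tomm70a, an outer membrane receptor with no higher level in TG. Each sequence is the 250 bases before the RefSeq start of the gene (GRCm38.p6), written 5′ to 3′ on the strand of the gene, and the last bases of the Timm23 and Tomm70a sequences lie inside the GENCODE gene. Capitals mark a match to 1 of 4 motifs of factors known to act on nuclear genes for mitochondrial proteins. The Timm13 sequence is from the minus strand at chr10:80900970-80901219, with GCATGCGC (NRF1). The Timm8b sequence is from the plus strand at chr9:50603651-50603900, with AAGGTCA (ERR). The Timm23 sequence is from the minus strand at chr14:32201892-32202141, with ACTTCCGG, the reverse complement of CCGGAAGT (ETS family). The Tomm70a sequence is from the plus strand at chr16:57121464-57121713, with CCGGAAGT.
Timm13: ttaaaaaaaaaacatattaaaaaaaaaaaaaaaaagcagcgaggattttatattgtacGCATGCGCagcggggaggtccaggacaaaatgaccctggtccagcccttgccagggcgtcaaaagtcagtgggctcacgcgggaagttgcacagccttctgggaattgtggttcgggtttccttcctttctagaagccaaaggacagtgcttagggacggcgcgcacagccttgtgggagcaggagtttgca
Timm8b: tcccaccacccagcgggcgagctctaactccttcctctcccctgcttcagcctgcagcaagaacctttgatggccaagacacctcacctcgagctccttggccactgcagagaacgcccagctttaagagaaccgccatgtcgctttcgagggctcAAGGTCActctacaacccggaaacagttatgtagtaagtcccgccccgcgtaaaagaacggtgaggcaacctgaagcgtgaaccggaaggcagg
Timm23: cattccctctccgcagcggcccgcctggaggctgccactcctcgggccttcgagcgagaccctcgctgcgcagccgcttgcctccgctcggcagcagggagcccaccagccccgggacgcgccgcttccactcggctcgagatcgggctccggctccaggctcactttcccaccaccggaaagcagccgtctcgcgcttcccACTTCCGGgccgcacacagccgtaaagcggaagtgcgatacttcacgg
Tomm70a: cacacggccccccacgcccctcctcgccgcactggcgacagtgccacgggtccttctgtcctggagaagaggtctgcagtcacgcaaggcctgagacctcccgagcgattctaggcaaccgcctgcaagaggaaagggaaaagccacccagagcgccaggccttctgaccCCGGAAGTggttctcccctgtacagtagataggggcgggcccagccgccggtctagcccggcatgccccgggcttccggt

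A RefSeq window from 250 bases before to 50 bases after the start was found for 31 of the 35 members. Tomm7, Tomm40l, Timm21 and Grpel2 had no window in the table used. Both strands were searched, and no motif overlapped another. CCGGAAGT was in 8 of the 31 windows (25.8%), those of Mtx2, Pmpcb, Timm10, Timm10b, Timm23, Timm29, Timm8a2 and Tomm70a, and in 5.7% of the windows of all protein-coding genes. The 8 genes include Timm10b and Tomm70a, with fold changes below 0, and Timm8a2, with no counts. AAGATGG (YY1) was in 12.9% of the members' windows and 7.2% of the coding ones. AAGGTCA was in 9.7% and 4.7%, and GCATGCGC in 6.5% and 3.9%. In the sequences above, the first base of the match lies 192 bases before the start in Timm13, 94 in Timm8b, 48 in Timm23 and 80 in Tomm70a.

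Most import genes had a log2 fold change above 0, none was called by the main test, and the mean of the list overlapped between the groups. Of the 32 tested, 27 had a log2 fold change above 0, with a median of 0.22, against 48.7% above 0 and a median of -0.01 over all 14774 tested genes. A call by edgeR's quasi-likelihood test needed a log2 fold change above 0.5 or below -0.5 together with an adjusted p under 0.05. By that rule 0 members were called higher and 0 lower, with 0% of all genes tested called in either direction. At an unadjusted p under 0.05, 12 members were higher, against 8.83% of all genes, and 0 were lower, against 9.76%. In 14 members every TG library lay above every NTG library, which held for 11.2% of all genes, and in 0 members every TG library lay below, which held for 12.3%. DESeq2, the tool of the study's methods, called 2 members higher (Tomm7 and Timm13) and 0 lower, against 1.54% and 2.4% of all genes. In bulk tissue, fewer cells of a type and less RNA per cell cannot be told apart.

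The count of calls rested on 1 library. Without NTG 1, edgeR called 5 members higher, namely Tomm7, Timm13, Timm23, Tomm5 and Timm8b, and 0 lower, against 2.67% and 2.85% of 15136 genes. The median then was 0.28, 29 of 32 fold changes were above 0, and 17 had an unadjusted p under 0.05, against 13.7% of all genes in the same fit. When any single library was left out, the median ran from 0.16 (without NTG 2) to 0.28, and the number at an unadjusted p under 0.05 from 6 (without TG 1) to 17. That number was 8 without NTG 2, NTG 3 or TG 3, and 13 without TG 2. The share of all genes that were higher at an unadjusted p under 0.05 moved too, to 5.08% without NTG 2, 5.15% without NTG 3, 4.98% without TG 1, 9.08% without TG 2 and 5.35% without TG 3. Members with every TG library above every NTG library numbered 21 without NTG 1, against 3517 of 15136 genes, and 23 without TG 2, against 3011 of 15062. With any other library left out they numbered 14 or 15, against 2072 to 2296 genes. In the other direction they numbered 0 to 2, against 2204 to 3555 genes. Fewer libraries make such a gap easier to reach. NTG 2 was the lowest of the 6 libraries for 21 of the 32 members and TG 1 the highest for 17. NTG 1 lay above both other NTG libraries for 26 members and above TG 2 for 17.

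**Figure D1:**
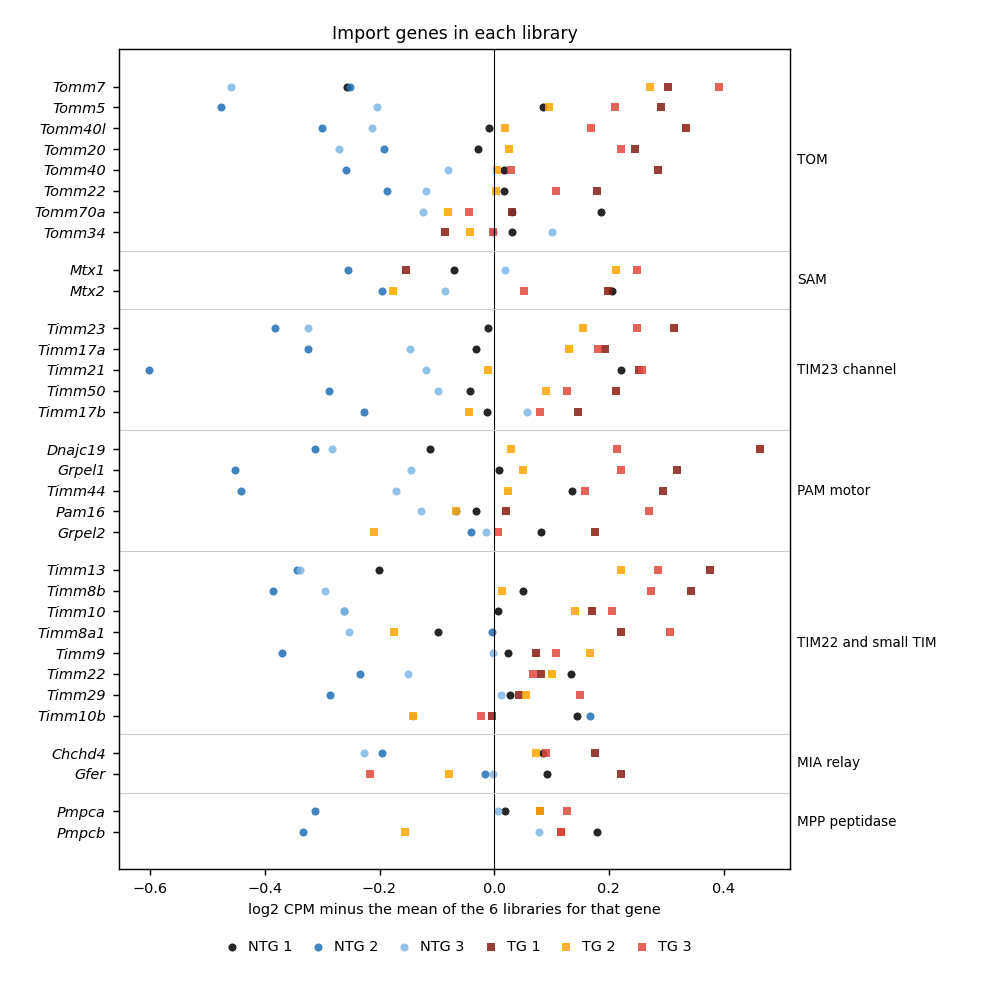
Each row is a tested import gene, grouped by complex, and each point is the log2 CPM of 1 library minus that gene's mean over the 6 libraries (circles NTG, squares TG). For Tomm7 and Timm13 the groups are apart, NTG 2 is the lowest library for 21 of 32 genes, and NTG 1 lies above TG 2 for 17.

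At the outer membrane, 10 TOM and SAM genes were tested, counted with Tomm34, which is listed under TOM by its name but encodes a cytosolic protein. Of these, 8 had a fold change above 0, with a median log2 fold change of 0.22. An unadjusted p under 0.05 was reached by 4 of them, all in TOM, against 8.83% of all genes in that direction. That count was 1 without NTG 3 or without TG 1, 2 without NTG 2 or without TG 3, against 4.98% to 5.35% of all genes in these fits, and 5 without NTG 1, against 13.7%. Tomm7 had the smallest p of all members. It encodes a small subunit that regulates how the TOM complex is put together, and lies on the minus strand at chr5:23838944-23844161 (GRCm38). Its CPM, the count scaled to a common library size by edgeR's TMM method, was 32.8, 32.9 and 28.5 in NTG and 48.3, 47.3 and 51.4 in TG. The groups were well apart. Its log2 fold change was 0.64 ± 0.10 (SE), or 1.56-fold, with an adjusted p of 0.196 by edgeR and of 0.000254 by DESeq2. Without NTG 1 edgeR gave 0.67 with an adjusted p of 0.0233.

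Tomm5, another small TOM subunit (minus strand, chr4:45105208-45108114), had 96.2, 65.2 and 78.7 CPM in NTG and 111, 96.9 and 105 in TG. The highest NTG value, NTG 1, lay just under the lowest TG value. Its log2 fold change was 0.39 ± 0.14 (SE) with an adjusted p of 0.225 by edgeR, and 0.54 with 0.0431 without NTG 1. Without NTG 2 it was 0.26. Tomm20, the receptor for proteins with a presequence, had 99.2, 88.6 and 83.9 CPM in NTG and 120, 103 and 118 in TG, again without overlap. The log2 fold change of Tomm20 was 0.33 ± 0.11 (SE), with an adjusted p of 0.207 by edgeR.

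Tomm40, the pore of TOM, had 52.5, 43.4 and 49.1 CPM in NTG and 63.3, 52.1 and 53 in TG, so NTG 1 and TG 2 overlapped. Its log2 fold change was 0.22 ± 0.11 (SE), and 0.12 without TG 1 and 0.14 without NTG 2. Tomm40l, a related pore protein, had 19.7, 16.1 and 17.1 CPM in NTG and 25, 20.1 and 22.3 in TG, without overlap. The log2 fold change of Tomm40l was 0.35 ± 0.13 (SE) with an adjusted p of 0.224 by edgeR. The exons of Tomm40l share 64.3% of their bases with Nr1i3 on the other strand, and Nr1i3 itself had 0 to 2 counts per library. Tomm22, the central receptor that links Tomm20 to the pore, ranged from 61.2 to 70.5 CPM in NTG and from 69.9 to 78.9 in TG, with a log2 fold change of 0.19 ± 0.09 (SE).

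The 2 genes listed under TOM with a fold change below 0 were Tomm70a and Tomm34. Tomm70a, the receptor for carrier proteins that come bound to cytosolic chaperones, had 117, 105 and 94.3 CPM in NTG and 105, 97.2 and 99.7 in TG. The TG values lay inside the NTG range, with a log2 fold change of -0.07 ± 0.10 (SE) and an adjusted p of 0.751 by edgeR, and without NTG 1 the sign turned to 0.01. Tomm34, a cytosolic co-chaperone, had 22, 21.5 and 23.1 CPM in NTG and 20.3, 20.9 and 21.5 in TG. The groups overlapped by TG 3 and NTG 2, and the log2 fold change was -0.09 ± 0.10 (SE). It was below 0 with each library left out, from -0.11 to -0.06.

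The metaxins Mtx1 and Mtx2, partners of the barrel insertase, gave no call. Mtx1 had 12.5, 11 and 13.3 CPM in NTG and 11.8, 15.2 and 15.6 in TG, with a log2 fold change of 0.21 ± 0.15 (SE). TG 1 lay among the NTG values, and leaving out TG 1 gave 0.33, while NTG 2 or TG 3 left out gave 0.14. Its exons share 30.1% of their bases with Thbs3 and Gm43737 on the other strand. Mtx2 had 86.9, 65.8 and 71 CPM in NTG and 86.5, 66.7 and 78.1 in TG, with a log2 fold change of 0.05 ± 0.14 (SE). The Mtx2 groups covered nearly the same range, and the sign of the difference turned without NTG 2 or without TG 1 and with scaling by library size alone.

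At the inner membrane, 16 of 18 tested genes of TIM23, its motor, TIM22 and the small TIM chaperones had a fold change above 0, with a median log2 fold change of 0.29, and 8 had an unadjusted p under 0.05, against 8.83% of all genes. Without NTG 2 the median was 0.19. The count ran from 5 without TG 1 (4.98% of all genes) to 11 without NTG 1 (13.7%). With gene length as an offset in the fit, the medians of the outer and of the inner membrane genes were both 0.22. In that fit 3 outer and 6 inner genes had an unadjusted p under 0.05, against 8.68% of all genes. The summed CPM of the inner membrane genes was 819, 649 and 723 in NTG and 962, 852 and 932 in TG, without overlap. That of the outer membrane genes was 609, 510 and 523 in NTG and 670, 589 and 640 in TG, where NTG 1 lay above TG 2. With each gene weighted alike, as the mean log2 CPM around the mean of the 6 libraries, the groups overlapped at neither membrane. The highest NTG library, NTG 1, and the lowest TG library, TG 2, were then at 0.0171 and 0.033 for the outer genes. For the inner genes they were at 0.0167 and 0.0293.

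All 5 TIM23 channel genes were above 0, with a median of 0.30. Timm23, the channel itself (minus strand, chr14:32180162-32201898), had 91.8, 71 and 73.9 CPM in NTG and 115, 103 and 110 in TG. The groups did not overlap, and NTG 1 was the NTG library nearest to TG. TG exceeded NTG by a log2 fold change of 0.47 ± 0.12 (SE), or 1.38-fold, with an adjusted p of 0.196 by edgeR and of 0.034 by DESeq2, where the fold missed the limit for a call. Without NTG 1 it was 0.59 with an adjusted p of 0.0249 by edgeR. For Timm23, 95.6% of the transcript lies at 95% identity or more in 6 other genes of the annotation, which together had 257 counts against 9141 on Timm23, so its count depends on how reads with several matches were treated, which is not given in the sources used here.

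Timm17a and Timm17b are alternative partners of the channel. Timm17a had 101, 82.5 and 93.3 CPM in NTG and 118, 113 and 117 in TG, with a log2 fold change of 0.33 ± 0.10 (SE) and an adjusted p of 0.203 by edgeR. Timm17b had 24, 20.7 and 25.2 CPM in NTG and 26.8, 23.5 and 25.6 in TG, with a log2 fold change of 0.12 ± 0.12 (SE). With single libraries left out it ran from 0.04 without NTG 2 to 0.18 without NTG 3. Only the Timm17a values were apart between the groups. At 95% identity or more, 10.6% of the Timm17a transcript is also found among 44 other genes, and 12.1% of that of Timm17b among 239. Those genes had 202145 counts against 10176 on Timm17a, and 748945 against 2376 on Timm17b. Both counts therefore also depend on how reads with several matches were treated.

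Timm50, the receptor that takes over the presequence on the inner side, had 49.7, 41.9 and 47.8 CPM in NTG and 59.3, 54.5 and 55.9 in TG, without overlap. For Timm50 this was a log2 fold change of 0.28 ± 0.10 (SE), with an adjusted p of 0.212 by edgeR. Timm21, which links the channel with TOM, ranged from 15.6 to 27.6 CPM in NTG and from 23.5 to 28.3 in TG. Its log2 fold change of 0.30 had the wide standard error of 0.20, and was 0.51 with an adjusted p of 0.103 without NTG 1 and 0.11 without NTG 2.

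In the import motor 4 of 5 genes were above 0, with a median of 0.30 that went to 0.46 without NTG 1 and 0.17 without NTG 2. Dnajc19, a J-protein that acts on the mitochondrial Hsp70 (minus strand, chr3:34056020-34081321), had 33.9, 29.5 and 30.1 CPM in NTG and 50.5, 37.4 and 42.5 in TG. The groups did not overlap, while TG 1 lay far above the other TG libraries. The size of the difference was a log2 fold change of 0.48 ± 0.13 (SE), or 1.39-fold, with an adjusted p of 0.196 by edgeR and 0.0597 by DESeq2. Without TG 1 it was 0.36, the lowest with any library left out.

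Grpel1 and Grpel2 are the nucleotide exchange factors of the same Hsp70. Grpel1 had 100 CPM in NTG 1, 72.7 in NTG 2 and 89.9 in NTG 3, and 124, 103 and 116 in TG. TG 2 was only just above NTG 1, and the log2 fold change was 0.38 ± 0.13 (SE) with an adjusted p of 0.216 by edgeR. Grpel2 had 23.6, 21.7 and 22.1 CPM in NTG and 25.2, 19.3 and 22.4 in TG. The Grpel2 groups overlapped fully, with a log2 fold change of -0.01 ± 0.13 (SE) whose sign turned without NTG 1 or without TG 2.

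Timm44, which anchors the motor at the channel, had 67.4, 45.2 and 54.5 CPM in NTG and 75.3, 62.4 and 68.5 in TG, with a log2 fold change of 0.30 ± 0.15 (SE). NTG 1 lay above TG 2, and without NTG 1 the difference was 0.46 with an adjusted p of 0.0645 by edgeR, and without NTG 2 it was 0.17. Pam16, which holds back the J-protein, ranged from 27.7 to 29.6 CPM in NTG and from 28.9 to 36.5 in TG. Pam16 had a log2 fold change of 0.16 ± 0.11 (SE), which was 0.05 without TG 3. A near-identical gene, Gm9803, covers 89.6% of its transcript and had 42 counts against 2982 on Pam16.

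In the carrier pathway of TIM22 and the small TIM chaperones, 7 of 8 tested genes were above 0, with a median of 0.23, and 3 had an unadjusted p under 0.05, against 8.83% of all genes. This count was 2 with any 1 of NTG 2, NTG 3, TG 1 or TG 3 left out, against 4.98% to 5.35%. Timm13, which works as a complex with Timm8 proteins between the membranes (minus strand, chr10:80899450-80900969), had 33.9, 30.7 and 30.8 CPM in NTG and 50.6, 45.4 and 47.5 in TG. As for Tomm7, the groups were well apart. The TG level was higher by a log2 fold change of 0.59 ± 0.09 (SE) with an adjusted p of 0.196 by edgeR and of 0.000824 by DESeq2. With each library left out it stayed between 0.54 and 0.63, and it was called by edgeR without NTG 1, with an adjusted p of 0.0224.

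Timm8b (plus strand, chr9:50603910-50605320) had 70.5, 52.1 and 55.5 CPM in NTG and 86.4, 68.7 and 82.3 in TG. NTG 1 lay above TG 2, so the groups overlapped by 1 library. This gave a log2 fold change of 0.41 ± 0.14 (SE) with an adjusted p of 0.212 by edgeR, and 0.55 with 0.0425 without NTG 1. Its exons share 15.6% of their bases with Nkapd1 on the other strand. Timm8a1, the other gene for a Timm13 partner, whose human counterpart is mutated in a deafness-dystonia syndrome, had 10.5, 11.2 and 9.43 CPM in NTG and 13.1, 9.95 and 13.9 in TG. The Timm8a1 groups overlapped by TG 2, with a log2 fold change of 0.25 ± 0.16 (SE), or 0.38 without TG 2 and 0.15 without TG 3. A copy in another gene, with 19 counts against 1109 on Timm8a1, covers 43.1% of its transcript.

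Timm10 forms the second chaperone complex with Timm9. It had 39.9, 33.1 and 33.1 CPM in NTG and 44.7, 43.8 and 45.8 in TG, without overlap. The log2 fold change of Timm10 was 0.34 ± 0.10 (SE), with an adjusted p of 0.200 by edgeR and 0.0434 without NTG 1, where the fold missed the limit for a call. Timm9 ranged from 8.76 to 11.5 CPM in NTG and from 11.9 to 12.7 in TG, with a log2 fold change of 0.22 ± 0.15 (SE). The groups of Timm9 were apart by a small gap, and without NTG 2 the difference was 0.10.

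Timm22, the channel for carriers, ranged from 23.7 to 30.6 CPM in NTG and from 29.2 to 29.9 in TG, and Timm29, its partner, from 55.1 to 68.5 in NTG and from 69.2 to 74.5 in TG. Both had a log2 fold change of 0.16, which without NTG 2 was 0.09 for Timm22 and 0.06 for Timm29, and for Timm22 was 0.28 without NTG 1. For Timm22 all TG values lay below NTG 1. Timm10b, which ties the small chaperones to TIM22, was the lowest expressed member tested, with 4.23, 4.3 and 3.47 CPM in NTG and 3.82, 3.47 and 3.77 in TG. Its log2 fold change of -0.12 had a standard error of 0.20, the largest of the members, and ran from -0.21 without NTG 3 to -0.06 without NTG 2. Of its exon bases, 22.1% are shared with other genes.

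The disulphide relay and the processing peptidase gave no call. Chchd4, the import receptor of the relay, had 32.8, 27 and 26.4 CPM in NTG and 34.9, 32.5 and 32.9 in TG. NTG 1 lay among the TG values, and the log2 fold change was 0.22 ± 0.11 (SE). Gfer, the oxidase that recharges it, had 22.3, 20.7 and 20.9 CPM in NTG and 24.4, 19.8 and 18 in TG. TG 1 and TG 3 were the highest and the lowest Gfer libraries, and the log2 fold change was -0.04 ± 0.13 (SE), whose sign turned without TG 3. Of the Gfer transcript, 32.3% is also found in Dst at 95% identity or more, with a best match of 100%. Dst had 75351 counts against 2057 on Gfer.

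Pmpca, the subunit of the peptidase that binds the presequence, had 116, 92.2 and 115 CPM in NTG and 121, 121 and 125 in TG, with a log2 fold change of 0.18 ± 0.11 (SE). The Pmpca groups did not overlap, but NTG 2 lay far below the other NTG libraries, and without it the difference was 0.08. Pmpcb, the catalytic subunit, had 164, 115 and 153 CPM in NTG and 157, 130 and 157 in TG. The Pmpcb groups overlapped, with a log2 fold change of 0.04 ± 0.15 (SE) whose sign turned without NTG 2, TG 1 or TG 3 and with scaling by library size alone.

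**Figure D2:**
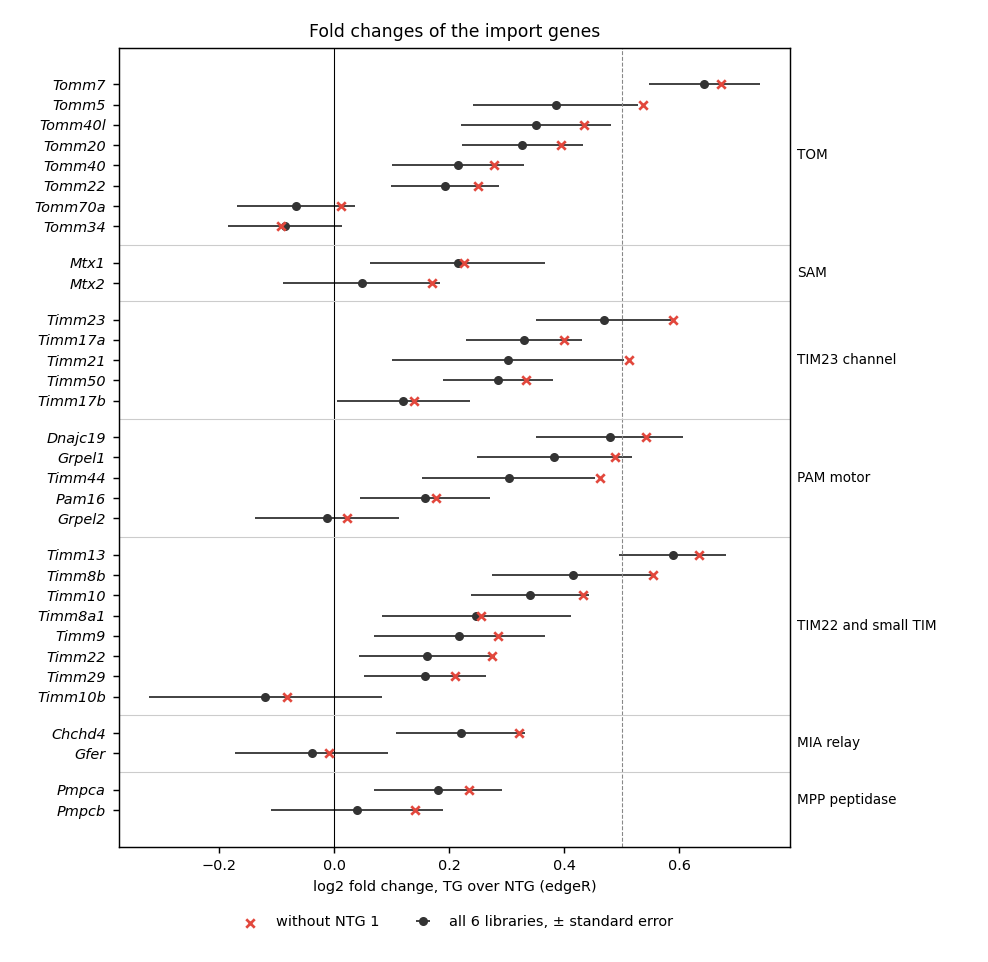
Each row is a tested import gene, grouped by complex. Points are edgeR's log2 fold changes of TG over NTG with their standard errors, crosses are the values without NTG 1, and the dashed line is the fold needed for a call. Tomm7 and Timm13 lie past 0.5 with all 6 libraries, and Tomm70a, Tomm34, Grpel2, Timm10b and Gfer lie below 0.

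Per length, as the mean RPKM over the 6 libraries (counts per kilobase of gene length, scaled to depth as CPM is), the members ranged from 134 for Timm8b and 106 for Tomm5 down to 1.07 for Timm10b. Timm23 followed at 52.7, Timm10 at 49.2, Tomm22 at 42.4 and Tomm7 at 35.7. Within TOM, the small subunits Tomm5 and Tomm7 and the receptor Tomm22 stood above Tomm20 (20.8), the pore Tomm40 (11.6) and Tomm70a (10.5). In the TIM23 channel, Timm23 was above Timm50 (19.2), Timm17a (13.2) and Timm17b (9.50). Pmpcb (28.4) and Pmpca (26.9) were close, in mean RPKM, and their ranges of CPM overlapped across libraries. These levels depend on the gene length in the table. It equals the exon bases of the annotation except for Timm21 (1315 in the table, 3722 in the annotation), Grpel2 (4030 and 6759) and Gfer (1775 and 2231), which are therefore not placed in this order.

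In 6 pairs of paralogs or partner subunits, the ratio of the 2 genes was compared within each library, which removes whatever both share. The log2 ratio of Timm17a to Timm17b was 1.98 ± 0.10 (SD, n = 3) in NTG and 2.19 ± 0.06 (SD, n = 3) in TG, that of Grpel1 to Grpel2 was 1.94 ± 0.18 and 2.35 ± 0.06, and that of Tomm40 to Tomm40l was 1.45 ± 0.06 and 1.32 ± 0.06. In these 3 pairs the groups did not overlap. The differences of TG minus NTG were 0.21, 0.41 and -0.13, each with p = 0.1 by a two-sided exact permutation test, the smallest p that 3 against 3 allows, and 0.2 after Benjamini-Hochberg adjustment over the 6 pairs. Without NTG 1 they were 0.26, 0.48 and -0.15. As the groups did not overlap, leaving out a library could not turn a sign. The pairs Timm8a1 and Timm8b, Pmpca and Pmpcb, and Mtx1 and Mtx2 overlapped between the groups, with differences of -0.18, 0.14 and 0.15 and exact permutation p-values of 0.4, 0.2 and 0.6. With single libraries left out, these differences ran from -0.30 (without NTG 1) to -0.04 (without NTG 2), from 0.06 (without TG 2) to 0.19 (without TG 1), and from 0.00 (without TG 2) to 0.37 (without TG 1).

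**Figure D3:**
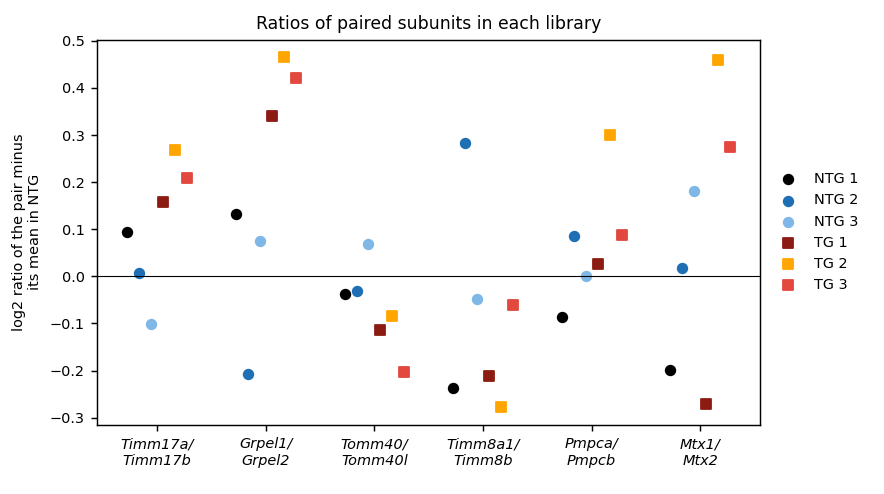
Each point is the log2 ratio of CPM of a gene pair in 1 library, minus the mean of that ratio in NTG (circles NTG, squares TG). All TG points lie above all NTG points for Timm17a/Timm17b and Grpel1/Grpel2 and below them for Tomm40/Tomm40l, and the other 3 pairs overlap.

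Of 20 further genes of the import pathway, among them insertases, chaperones and peptidases, all 20 were tested, 19 had a fold change above 0 with a median log2 fold change of 0.22, and 4 had an unadjusted p under 0.05 in that direction, against 8.83% of all genes. By edgeR 0 were called. Without NTG 1 the median was 0.35, 11 had such a p (13.7% of all genes in that fit) and 3 were called (2.67%), namely Romo1 and the matrix chaperone genes Hspe1 (0.78, adjusted p 0.0264 by edgeR) and Hspd1 (0.62, adjusted p 0.0388), both named after their values were seen. With any 1 of NTG 2, NTG 3, TG 1 or TG 3 left out, 2 had such a p, against 4.98% to 5.35%. Romo1, a small inner membrane protein tied to TIM23, had 48.6, 29.7 and 35.6 CPM in NTG and 68.5, 58.3 and 65.9 in TG. The Romo1 groups did not overlap, with a log2 fold change of 0.76 ± 0.17 (SE) and an adjusted p of 0.196 by edgeR, 0.01 by DESeq2 and 0.0149 by edgeR without NTG 1. It was the 1 further gene that DESeq2 called.

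Samm50, the barrel insertase of the outer membrane, had 158, 122 and 146 CPM in NTG and 202, 174 and 196 in TG, without overlap. Its log2 fold change was 0.42 ± 0.12 (SE), with an adjusted p of 0.196 by edgeR. Dnajc15, a relative of Dnajc19, had 57.5, 44.8 and 49.1 CPM in NTG and 74.2, 54.7 and 74.8 in TG. NTG 1 lay above TG 2, with a log2 fold change of 0.43 ± 0.15 (SE). Mtch1, a relative of the outer membrane insertase Mtch2, was the one gene below 0, at -0.01 ± 0.10 (SE), and went above 0 without NTG 1. Hspa9, the motor's Hsp70, had a log2 fold change of 0.20 ± 0.15 (SE), and 0.34 without NTG 1.

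The import genes were set beside 2 larger groups of nuclear genes for mitochondrial proteins. Of 80 tested respiratory chain subunits, 79 were above 0 with a median log2 fold change of 0.42, and of 77 mitochondrial ribosomal proteins, 73 with a median of 0.28. Higher levels with an unadjusted p under 0.05 were found for 47 of 80 and 36 of 77, and for 12 of 32 import genes, against 8.83% of all genes. With any 1 library left out, the respiratory count ran from 24 without TG 1 (4.98% of all genes) to 72 without NTG 1 (13.7%), with 28 without NTG 3 (5.15%) or TG 3 (5.35%). The ribosomal count ran from 19 to 47 in the same 2 fits, with 20 to 22 without NTG 2, NTG 3 or TG 3 (5.08% to 5.35% of all genes), and its median was 0.19 without NTG 2. The list mean of log2 CPM, around its mean over the 6 libraries, was 0.03, -0.24 and -0.14 for the import genes in NTG and 0.18, 0.02 and 0.14 in TG. For the respiratory chain it was 0.00, -0.45 and -0.24 in NTG and 0.34, 0.02 and 0.32 in TG. NTG 2 was the lowest and TG 1 the highest library in both lists, and NTG 1 and TG 2 lay side by side. The import mean minus the respiratory mean was 0.02, 0.20 and 0.10 in NTG and -0.16, 0.00 and -0.18 in TG, so these groups did not overlap, while that to the ribosomal mean lay between -0.06 and 0.07 and overlapped. No test was run of these differences between lists.

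**Figure D4:**
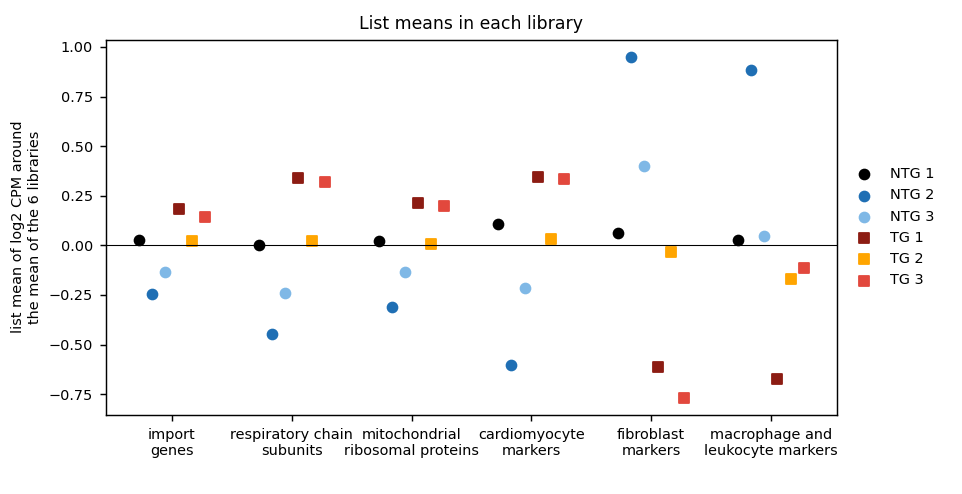
Each point is the mean log2 CPM of a gene list in 1 library, around the mean of the 6 libraries (circles NTG, squares TG). The import genes run from -0.24 in NTG 2 to 0.18 in TG 1, the cardiomyocyte markers are lowest and the fibroblast markers highest in NTG 2, and both marker lists have wider ranges.

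The cardiomyocyte markers went the same way as the import genes, and the fibroblast, leukocyte and erythroid markers the other way. All 8 cardiomyocyte markers had a fold change above 0, with a median log2 fold change of 0.50 and a summed CPM of 21126 to 35776 in NTG and 34471 to 42698 in TG. All 8 fibroblast markers were below 0, with a median of -0.88 and sums of 4709 to 10852 in NTG and 2317 to 4017 in TG. Without NTG 2 the cardiomyocyte median was 0.30 and without NTG 1 it was 0.72. Likewise all 6 macrophage and leukocyte markers and all 5 erythroid markers were below 0, with sums of 691 to 1219 and 1310 to 2245 in NTG and of 469 to 668 and 762 to 908 in TG. The leukocyte median was -0.60 with all libraries and -0.28 without NTG 2, where 1 of the 6 was above 0, as 1 of the 8 fibroblast markers was. Of 6 endothelial and 6 smooth muscle and pericyte markers, 3 each were above 0. Across the libraries, the cardiomyocyte list mean was lowest in NTG 2 (-0.60) and highest in TG 1 (0.34), as the import mean was. The atrial genes Sln, Myl7 and Myl4, which a ventricle should nearly lack, summed to 67.4, 2.18 and 2.2 CPM in NTG and 4.54, 29.2 and 167 in TG. The import mean in the same order was 0.03, -0.24 and -0.14 in NTG and 0.18, 0.02 and 0.14 in TG, so NTG 1 was the highest NTG library in both, while in TG the atrial sum was highest in TG 3 and the import mean in TG 1. No defining marker of the cardiomyocyte, fibroblast, leukocyte or endothelial lists was at 0 in any library, and the part of the cell makeup in the import values was not tested.

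Short genes had higher fold changes than long ones in these libraries, and several import genes are short. Over all genes tested, the median log2 fold change was 0.15 for 916 genes under 1000 bases, 0.08 for 1769 genes of 1000 to 2000, 0.00 for 4374 genes of 2000 to 4000 and -0.03 for 7715 longer genes. The import genes of the same bins had medians of 0.39 (3 genes), 0.30 (7), 0.16 (11) and 0.22 (11), above that of all genes in each bin. Timm21 and Gfer stand in the second bin by their table lengths, which are shorter than in the annotation, and the median of that bin is the value of Timm21 itself. In a check added after the values were seen, the other 5 genes of the bin had a median of 0.47. Across the 32 import genes, which share the same 6 libraries and are not independent, fold change and log length had a Pearson r of -0.43 and a Spearman rho of -0.32, and across the 29 with equal lengths in table and annotation of -0.47 and -0.34. With a length offset in the fit, the median of the members was 0.22, 27 were above 0 and 9 had an unadjusted p under 0.05, against 49.6% above 0 and 8.68% of all genes in that fit. Tomm7 was then at 0.54, while Timm13, at 0.497, lay just below the fold needed for a call. The 3 members that lost an unadjusted p under 0.05 were the 3 shortest, Timm8b (0.41 to 0.27), Timm10 (0.34 to 0.22) and Tomm5 (0.39 to 0.26).

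**Figure D5:**
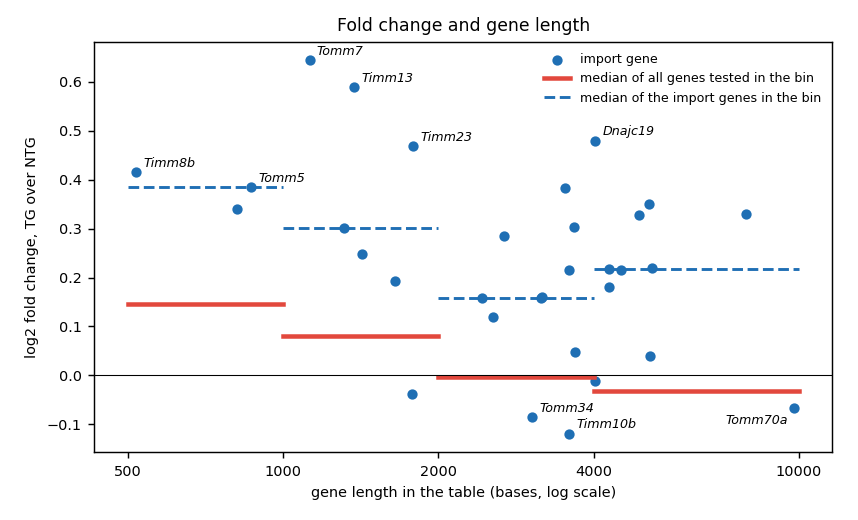
Each point is a tested import gene, with its length in bases on a log axis against its log2 fold change of TG over NTG. Red lines are the medians of all genes tested in the length bin (0.15, 0.08, 0.00 and -0.03) and dashed blue lines those of the import genes, which lie above them in each bin.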

How the data were processed

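RNA-seq of the left ventricle was made from poly-A libraries on the Illumina Novaseq platform. The authors filtered raw reads with perl scripts, mapped the clean reads, predicted transcripts with StringTie v1.3.3b and counted reads per gene with featureCounts v1.5.0-p3, and the deposited table holds these raw counts in 1 column for each heart. The submitters' processing notes name HISAT2, DESeq2 and the human build GRCh38, while 54495 of the 54532 gene identifiers are in GENCODE mouse release 21 (GRCm38), 98.3% of them at the same position. Strand setting and treatment of reads with several matches are not given in the sources used here. All 6 columns were matched to samples by name and 0 were left unmatched. 27 gene names that had become dates include no import gene.

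The counts were fitted with edgeR 4.0.16 in R 4.3.3 (TMM, filterByExpr, robust quasi-likelihood test, p-values adjusted over 14774 tested genes by Benjamini-Hochberg). A call needed the adjusted p and the fold that the study used for its own gene counts. CPM and RPKM were computed from the counts, with a prior count of 2 where logged. Total counts of 14863568 to 17581220 per library give the depth, and counting error enters the spread between hearts. The groups come from the labels, without covariates. Alternatives were other scalings, filters and tests (DESeq2 1.42.0, limma 3.58.1 voom), a loess length offset of span 0.3, a replicate block and each library left out. Correlations of same-numbered hearts were 0.0807, 0.173 and -0.252, so the numbers were not taken to pair hearts. Named genes were all tested members, with library values for the 3 of each complex with the smallest p, both genes of each pair and members below 0. Tomm5 was given its library values after these were seen. Members, lists and motifs were chosen with earlier results of these data known, and a list is described by counts and medians beside those of all genes, with no test of the list.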

Additional observations from a re-analysis of the deposited data

How the results depend on the processing

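Over all genes, the number called higher and lower in TG was 0 and 0 by the main test, 116 and 116 without a low-count filter, 206 and 339 by edgeR's likelihood-ratio test, 228 and 355 by DESeq2, 896 and 877 by DESeq2 without NTG 1, and 0 to 404 and 0 to 432 with each library left out of the main test. Unadjusted p-values under 0.05 were given by edgeR for 1305 genes higher and 1442 lower. Import genes called higher were 0 by the main test, 2 without a low-count filter, 2 by the likelihood-ratio test, 2 by DESeq2, 6 by DESeq2 without NTG 1, where Dnajc19 joined the 5 of edgeR, and 0 to 5 with each library left out, and 0 were called lower under all of these. The cause of these differences between tools was not tested.

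The hearts share only replicate numbers. With a replicate block, edgeR called 84 genes higher and 147 lower, among them 2 import genes (Tomm7 with an adjusted p of 0.0476 and Timm13 with 0.0421), and with the block and a length offset together 77 and 139, among them 0. Within-number differences of the 6 gene ratios, by an exact sign-flip test, gave p-values of 0.25 to 0.75, where 0.25 is the smallest that 3 pairs allow.

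The median log2 fold change of the import genes lay between 0.14 (library size alone, where the median of all genes was -0.09) and 0.29 (DESeq2 without NTG 1). Scaled by library size alone, 25 of the 32 import genes were above 0, against 37.9% of all genes. Of 640 values of single members, 608 kept sign and side of the threshold, 19 passed it anew and 13 changed sign, all in Gfer, Grpel2, Mtx2, Pmpcb and Tomm70a. With library size alone, Mtx2 was at -0.0365 and Pmpcb at -0.0423. By DESeq2 without NTG 1, Grpel2 was at 0.0298 and Tomm70a at 0.0201. With each library left out, Gfer ran from -0.17 to 0.0516, Grpel2 from -0.11 to 0.0838, Mtx2 from -0.0442 to 0.17, Pmpcb from -0.10 to 0.14 and Tomm70a from -0.14 to 0.0125. Depth limits Timm10b most among the tested members, with 53 to 81 counts per library. In an alternative added after the data had been seen, the members whose table length differs from the annotation were left out, and the median of the members of 1000 to 2000 bases moved from 0.30 to 0.47.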
